A study of Mus musculus with 26 samples.

Results

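The 10 genes followed here are known targets of cyclic AMP (cAMP), read in 26 clonal mouse adipose cell lines, and are Nr4a1, Nr4a2, Nr4a3, Crem, Atf3, Per1, Sik1, Pde4b, Pde4d and Fosl2. They were taken by name, each gene was read from its brightest probe set, and all 10 of 10 members were measured and passed the filter that left 12741 tested genes. That filter asks only that a gene lie above its array's median in at least 3 arrays, and 9 members did so in all 26 arrays. There were 23 clones from the inguinal depot, a subcutaneous fat pad that holds white and beige fat cells, and 3 clones, named BAT1, BAT6 and BAT8, from the interscapular depot, which holds brown fat cells. All clones are immortalized lines on the 129SVE background from Taconic and are described as fully differentiated. They were exposed to forskolin for 4 h before their RNA was hybridised to Affymetrix mouse whole-genome arrays, 1 array per clone. Forskolin activates adenylyl cyclase directly and so raises cAMP without a receptor. The dose is written as 10 micromolar in the series text and as 10 mM in the sample protocols, and the difference was not resolved. No untreated clone was analysed here, so the values below are levels after forskolin and carry no measure of induction. The age and sex of the animals are not given in the sources used here, and neither is which inguinal clones count as beige, so inguinal clones were not put into groups.

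cAMP activates protein kinase A, which phosphorylates the transcription factor CREB, and CREB with its coactivators starts the transcription of genes that carry cAMP response elements near their start. In fat cells this is the route from the sympathetic nerve signal to lipolysis and, in brown and beige cells, to heat production. Many of its early targets are themselves regulators. Some carry the signal on as transcription factors, and others, such as the cAMP repressor made from Crem, the kinase Sik1 and the phosphodiesterases Pde4b and Pde4d, bring it down again.

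Values are given as log2(intensity + 16), where intensity is the deposited linear signal of a probe set, and a difference of 1 on this scale is close to a doubling for a bright gene and understates the change of a dim one. Levels of different genes rest on different probe sets and were not set against each other. Array medians lay between 40.32 and 45.69 intensity units and no array was a copy of another. Adipocyte markers were present in every clone, with 14 of 21 measured markers above the array median in all arrays, and their mean ranged from 7.857 to 11.43 in inguinal and from 10.37 to 11.55 in interscapular clones. The adipokine gene Lep lay above the median in no array. The leukocyte genes Ptprc and Itgam and the endothelial genes Pecam1 and Cdh5 lay above the median in no array, while the macrophage genes Adgre1, Cd68 and Csf1r, 3 of 7 macrophage and leukocyte markers, and the endothelial gene Kdr, 1 of 4 endothelial markers, lay above it in all arrays. The mean of the 7 macrophage and leukocyte markers was 6.108 to 6.827 in inguinal and 6.647 to 7.001 in interscapular clones, and that of the 4 endothelial markers 5.106 to 6.026 and 5.539 to 5.653; their part in the results was not tested. Of 5 measured preadipocyte and fibroblast markers, Pdgfra and Thy1 lay above the median in all arrays and Dpp4 in none. The mean of these 5 markers was 8.066 to 10.07 in inguinal and 7.601 to 8.502 in interscapular clones, and their part was not tested either. A clone in which fewer cells had differentiated cannot be told apart from one in which each cell held less RNA of a gene.

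The sequences before the gene starts show how unevenly the 8 members with a matched promoter carry the letters that CREB reads. RefSeq promoters on GRCm38.p6 were matched for 8 of the 10 members, 12 promoters in all, and none for Crem and Sik1. Each window is the 250 bases before the start, printed 5′ to 3′ on the gene's own strand, and capitals mark the core of the cAMP response element, TGACG, or its reverse complement CGTCA. The 3 Nr4a genes, Atf3 and Per1 are shown, the first 3 for their number of sites and the other 2 because they varied together with Nr4a1 and Nr4a3 from clone to clone.
Nr4a1, chr15:101266596-101266845, + strand: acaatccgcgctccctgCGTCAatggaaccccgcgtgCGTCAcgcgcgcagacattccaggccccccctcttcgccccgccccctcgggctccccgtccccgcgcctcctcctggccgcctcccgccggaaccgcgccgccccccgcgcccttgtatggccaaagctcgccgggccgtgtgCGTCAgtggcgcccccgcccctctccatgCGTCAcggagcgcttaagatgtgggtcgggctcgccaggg
Nr4a2, chr2:57124004-57124253, − strand: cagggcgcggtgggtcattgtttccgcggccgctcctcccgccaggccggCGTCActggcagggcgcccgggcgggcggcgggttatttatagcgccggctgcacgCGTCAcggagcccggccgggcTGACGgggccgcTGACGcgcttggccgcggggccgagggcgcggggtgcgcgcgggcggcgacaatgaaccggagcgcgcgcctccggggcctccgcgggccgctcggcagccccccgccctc
Nr4a3, chr4:48045055-48045304, + strand: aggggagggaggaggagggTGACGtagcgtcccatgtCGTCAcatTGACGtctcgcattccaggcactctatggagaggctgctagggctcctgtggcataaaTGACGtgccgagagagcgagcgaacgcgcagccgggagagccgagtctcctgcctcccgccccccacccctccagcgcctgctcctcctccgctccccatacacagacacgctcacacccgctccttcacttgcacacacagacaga
Atf3, chr1:191183334-191183583, − strand: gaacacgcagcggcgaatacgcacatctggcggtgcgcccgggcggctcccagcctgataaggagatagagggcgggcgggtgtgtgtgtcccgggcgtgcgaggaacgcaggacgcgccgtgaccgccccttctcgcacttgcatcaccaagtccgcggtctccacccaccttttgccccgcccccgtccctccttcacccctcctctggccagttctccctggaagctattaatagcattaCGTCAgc
Per1, chr11:69099902-69100151, + strand: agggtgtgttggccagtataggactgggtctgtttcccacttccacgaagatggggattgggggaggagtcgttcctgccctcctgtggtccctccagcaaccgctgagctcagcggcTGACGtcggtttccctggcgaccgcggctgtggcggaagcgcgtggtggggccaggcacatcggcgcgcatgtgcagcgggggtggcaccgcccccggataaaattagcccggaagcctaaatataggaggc
Nr4a1, Nr4a2 and Nr4a3 each held 4 cores in this window, a number reached or passed by 0.137% of all 32851 RefSeq promoters. In Nr4a1 they began 233, 213, 69 and 40 bases before the start, in Nr4a2 200, 144, 123 and 111 bases before it, and in Nr4a3 231, 213, 205 and 147 bases before it. Atf3 held 1 core, 7 bases before the start, and each of the 2 promoters of Per1 held 1, at 132 bases in the promoter shown and at 246 bases in the other. Pde4b held 1 core in 1 of its 4 promoters, and the windows of Pde4d and Fosl2 held none. At least 1 core was found in 7 of the 12 member promoters and in 17.8% of all promoters. The full palindrome TGACGTCA, which contains the core on both strands, overlapping, occurred in 0 of the 12 member promoters and in 1.55% of all promoters. A match is a run of letters and not a measured binding site.

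The 3 Nr4a genes encode orphan nuclear receptors that act as transcription factors without a known regulating ligand and are early targets of cAMP in many tissues. Nr4a1 ranged over the 23 inguinal clones from 9.955 in clone A5 through a median of 11.09 to 12.94 in clone X7, and stood at 11.94 in BAT1, 10.87 in BAT6 and 12.58 in BAT8. Nr4a2 ranged from 7.938 in X3 through 9.386 to 10.59 in X7, and stood at 10.71 in BAT1, 7.365 in BAT6 and 8.883 in BAT8. Nr4a3 ranged from 8.532 in A5 through 10.23 to 11.53 in X7, and stood at 11.49 in BAT1, 8.853 in BAT6 and 9.563 in BAT8. Clone X7 was thus the highest inguinal clone for all 3 receptors. The interscapular clones did not move as a group: for Nr4a2, BAT1 lay above all 23 inguinal clones and BAT6 below all 23. The range among inguinal clones amounted to 7.94-fold for Nr4a1, 6.29-fold for Nr4a2 and 7.99-fold for Nr4a3 on the log2(intensity + 16) scale. Their SDs of 0.676, 0.820 and 0.801 lay at percentiles 92.8, 96.1 and 95.8 of the SDs of all tested genes, whose median was 0.324.

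Crem encodes activators and, from an internal promoter, the inducible repressor ICER, which shuts cAMP targets off again. Crem ranged in inguinal clones from 9.767 in F9 through 11.04 to 11.79 in J6, and stood at 11.12 in BAT1, 9.822 in BAT6 and 9.306 in BAT8. BAT8 was below all 23 inguinal clones and BAT6 above 1 of them, while BAT1 lay in the middle of the inguinal range. The array's second Crem probe set gave the same order of groups, with means of 10.19 and 9.009, and correlated with the first over inguinal clones (r = 0.849). The probe sets do not say which Crem transcript was present.

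Atf3 encodes a basic leucine zipper factor that is induced by cAMP and also by the stress pathway of Atf4. Atf3 ranged in inguinal clones from 7.178 in E3 through 9.957 to 11.36 in M3, and stood at 12.75 in BAT1, 11.64 in BAT6 and 11.79 in BAT8. Every interscapular clone lay above every inguinal clone, which held for no other member. Atf3 was also the most variable member among inguinal clones, with an 18.2-fold range and an SD of 1.298 at percentile 99.3 of all tested genes.

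Per1 is a repressor of the circadian clock whose promoter responds to CREB, and Sik1 is a salt-inducible kinase that keeps the CREB coactivators of the CRTC family out of the nucleus. Per1 ranged in inguinal clones from 8.866 in N13 through 9.785 to 10.48 in X7, and stood at 10.06 in BAT1, 9.251 in BAT6 and 10.68 in BAT8. Sik1 ranged from 5.045 in I2 through 7.019 to 8.426 in X9, and stood at 7.877 in BAT1, 6.168 in BAT6 and 7.430 in BAT8. Sik1 exceeded its array's median in 20 of the 23 inguinal clones, fewer than any other member, so its lowest values lie near background and its 10.4-fold range is approximate. BAT8 exceeded all 23 inguinal clones for Per1, while the interscapular values of Sik1 lay inside the inguinal range.

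Pde4b and Pde4d encode phosphodiesterases that break down cAMP, and Fosl2 encodes an AP-1 transcription factor of the Fos family. Pde4b ranged in inguinal clones from 10.50 in D16 through 11.04 to 11.68 in G18, and stood at 11.10 in BAT1, 10.86 in BAT6 and 11.79 in BAT8. Pde4d ranged from 9.634 in X9 through 10.49 to 10.96 in A3, and stood at 10.41 in BAT1, 10.06 in BAT6 and 10.04 in BAT8. Fosl2 ranged from 11.26 in N13 through 12.34 to 12.84 in F4, and stood at 12.20 in BAT1, 11.58 in BAT6 and 12.51 in BAT8. These were the 3 most uniform members, with inguinal ranges of 2.27-fold, 2.51-fold and 2.98-fold and SDs of 0.337, 0.360 and 0.345 at percentiles 54.0, 60.7 and 56.4. The 10 members therefore ran from ordinary variability in Pde4b to nearly the most variable of all tested genes in Atf3.

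**Figure D1:**
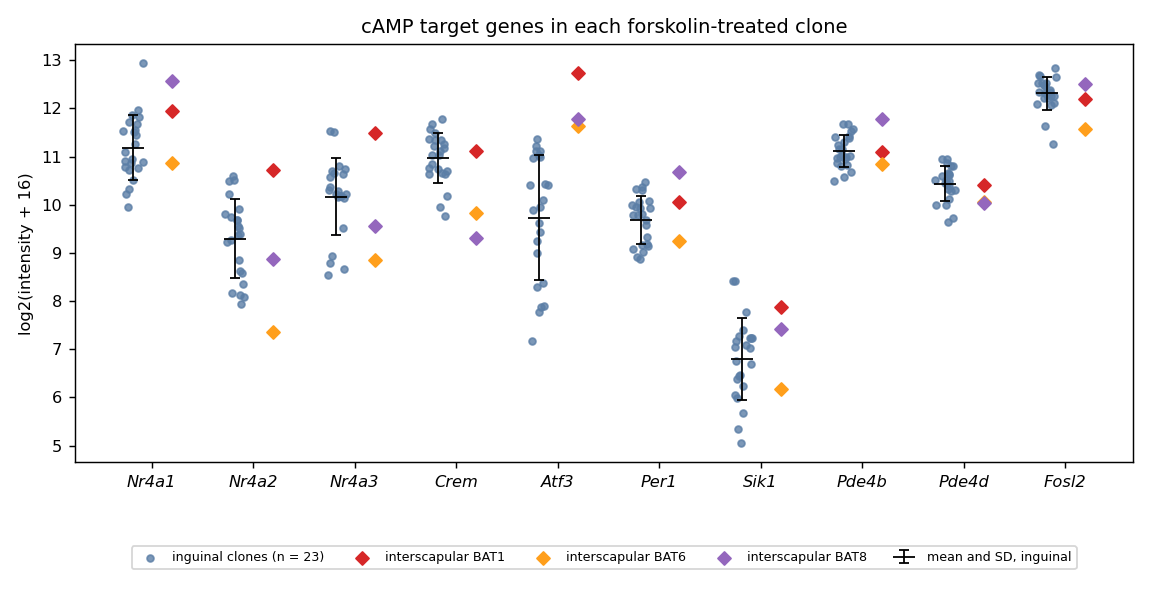
Level of each of the 10 genes in every clone on the log2(intensity + 16) scale; circles are the 23 inguinal clones, diamonds the 3 interscapular clones, and the black bars the inguinal mean and SD. Atf3 has the longest column, from 7.178 to 11.36, with all 3 interscapular clones above it, while Pde4b, Pde4d and Fosl2 stay within narrow columns.

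BAT6 gave the lowest interscapular value for 8 of the 10 members, the exceptions being Crem and Pde4d, and the highest for none. BAT1 gave the highest value for 6 members and BAT8 for 4. BAT6 also had the largest log2 ratio of 3′ to 5′ signal from the array's actin control probe sets, a measure of RNA integrity and labelling, at 1.151 against 0.661 in BAT1, 0.429 in BAT8 and 0.243 to 0.988 in inguinal clones. BAT6 differs from the other 2 in scan session as well, and the part of either in these low values was not tested.

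The depots were compared to ask whether brown-depot and inguinal clones hold different levels of cAMP targets under the same forskolin exposure. Atf3 was the only member that passed, higher in the interscapular clones by 2.33 log2 units, and 9 members did not pass. The test was limma over all 12741 tested genes, two-sided, with p-values adjusted by the method of Benjamini and Hochberg and a threshold of 0.05. The fit called 10.2% of all tested genes, 4.55% as higher and 5.64% as lower, so 1 call in 10 members is close to the background share. Groups that do not overlap in either direction were found for 2.86% of all tested genes and, among the members, for Atf3 alone.

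Atf3 averaged 9.73 ± 1.30 over the inguinal (SD, n = 23) and 12.06 ± 0.60 over the interscapular clones (SD, n = 3), which is 2.33 apart with a standard error of 0.71, a 95% interval from 0.87 to 3.79 and a limma adjusted p of 0.0349. The difference stayed positive in all 23 alternative settings, between 0.93 and 2.54, and passed in 8 of them. Leaving out BAT1, BAT6 or BAT8 left 1.99, 2.54 and 2.46, with limma adjusted p of 0.171, 0.105 and 0.0924, so the call was lost without any of the 3 interscapular clones. Within scan session 1 the difference was 2.44 and within session 2 it was 1.87, and within scanners 1 and 2 it was 2.27 and 2.24, with limma adjusted p from 0.122 to 0.485. With chip lot as a block it was 1.48 (limma adjusted p = 0.256), within lot 2 it was 1.26 (0.165), and with fluidics station as a block it was 1.31 (0.398).

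The means of the adipocyte marker and stress gene lists lay above the inguinal median in all 3 interscapular clones. Unlike Atf3, both means overlapped between the depots, since the highest inguinal clones reached 11.79 (D12) for adipocyte markers and 11.37 (X7) for stress genes. Whether either list has a part in the depot difference of Atf3 was not tested. The mean of the 20 adipocyte markers that passed the filter was 11.92, 11.42 and 10.67 in BAT1, BAT6 and BAT8 against an inguinal median of 10.46, and with it as a covariate the depot difference was 1.18 (limma adjusted p = 0.201). The mean of 15 genes of the Atf4 pathway and unfolded protein response was 11.14, 11.22 and 11.52 against an inguinal median of 11.06, and with it as a covariate, a setting added after the data were seen, the difference was 0.93 (limma adjusted p = 0.307).

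Crem did not pass with all arrays, at 10.08 ± 0.93 (n = 3) against 10.97 ± 0.52 (n = 23), a difference of -0.89 with a standard error of 0.33, a 95% interval from -1.57 to -0.21 and a limma adjusted p of 0.0844. It passed without BAT1, at -1.41 (limma adjusted p = 0.016), and with chip lot as a block, at -1.22 (0.0443), and was -0.76 without BAT6 (0.324) and -0.50 without BAT8 (0.478). Its sign was the same in all 23 alternatives. The average of all 4 Crem probe sets, of which the dimmer 2 lay above the array median in 9 and 8 of 26 arrays, gave -0.47.

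The other 8 members had limma adjusted p between 0.351 and 0.841. Nr4a1 differed by 0.61 (95% interval -0.21 to 1.42), Nr4a2 by -0.31 (-1.39 to 0.77) and Nr4a3 by -0.20 (-1.21 to 0.81). These intervals still admit differences of 2-fold for the receptors in at least 1 direction, so the arrays do not show that the depots hold equal levels. Nr4a2 passed within scan session 2, where BAT6 is the only interscapular clone, at -2.54 (limma adjusted p = 0.0209), and was 0.51 within session 1, where BAT1 and BAT8 lie. Per1 differed by 0.31 (-0.31 to 0.94) and Sik1 by 0.36 (-0.65 to 1.36). Pde4b differed by 0.13 (-0.31 to 0.56), Pde4d by -0.27 (-0.70 to 0.16) and Fosl2 by -0.22 (-0.66 to 0.22), the narrowest intervals of the set. A dimmer Fosl2 probe set differed by 0.44 and was unrelated to the brightest (r = 0.039), so the sign for Fosl2 rests on the probe set chosen. The median difference over the 10 members was -0.04, and that over all tested genes was -0.02.

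**Figure D2:**
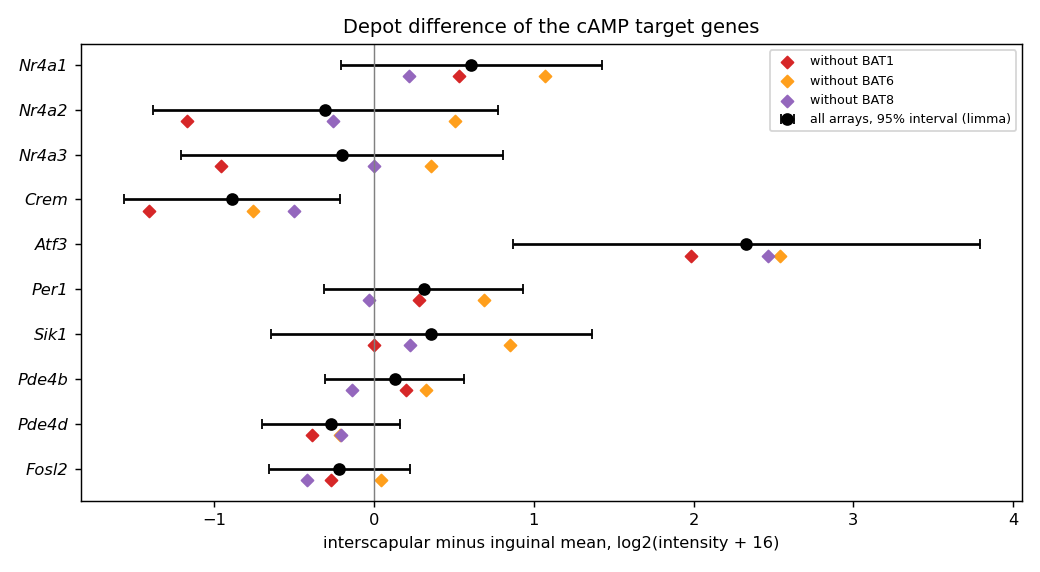
Interscapular minus inguinal mean of each gene on the log2(intensity + 16) scale; black circles and bars are the limma estimate from all 26 arrays with its 95% interval, and coloured diamonds the estimate after leaving out 1 interscapular clone. Atf3 lies at 2.33 and stays between 1.99 and 2.54 without any 1 clone, while Nr4a2, Nr4a3, Per1, Pde4b, Fosl2 and, at -0.001 without BAT1, Sik1 change sign with the clone left out.

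Whether the genes vary together was asked over the 23 inguinal clones, where a correlation has enough points. Of 45 pairs of members, 40 had a positive Pearson correlation, with a median r of 0.283, and 8 pairs passed after Benjamini-Hochberg adjustment over the 45 pairs (100000 permutations, two-sided), all of them positive. An r of at least 0.591, the smallest that passed, was found for 1.49% of all pairs of tested genes, and for 2.27% when its negative counterpart is counted too. Before adjustment 20 pairs had a permutation p under 0.05, and by Spearman's rho 10 pairs passed.

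Of these 8 pairs, 6 joined Nr4a1, Nr4a3, Atf3 and Per1, that is, every pair among these 4 genes. Nr4a1 and Nr4a3 had r = 0.743 (permutation p = 6e-05, adjusted p = 0.00135, rho = 0.734), Nr4a1 and Atf3 r = 0.720 (adjusted permutation p = 0.00135, rho = 0.694), and Nr4a1 and Per1 r = 0.715 (adjusted permutation p = 0.0018, rho = 0.714). Atf3 and Per1 had r = 0.719 (adjusted permutation p = 0.0018, rho = 0.727). The remaining pairs of the 4 were the weakest, Nr4a3 with Atf3 at r = 0.639 (adjusted permutation p = 0.00792), whose rho of 0.489 did not pass (0.0718), and Nr4a3 with Per1 at r = 0.591 (adjusted permutation p = 0.0163, rho = 0.589).

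Nr4a2 followed its relative Nr4a3 (r = 0.627, adjusted permutation p = 0.0103, rho = 0.627) but had r of 0.439 with Nr4a1, near 0 with Atf3 and 0.09 with Per1. With the mean of all 6 Nr4a2 and 3 Nr4a3 probe sets the correlation of these 2 receptors was 0.395, since the dimmer probe sets do not all follow the brightest. Crem and Sik1 formed the eighth pair (r = 0.616, adjusted permutation p = 0.0123, rho = 0.642). Pde4b, Pde4d and Fosl2 passed by rank with all clones, with rho of 0.529 for Pde4b and Pde4d, 0.554 for Pde4b and Fosl2 and 0.562 for Pde4d and Fosl2 (adjusted permutation p of 0.0485, 0.0339 and 0.0339), against r of 0.526, 0.504 and 0.448 that did not pass. The r of Pde4b and Pde4d passed in several alternatives, among them scan session as a block (0.60, adjusted permutation p = 0.00801) and without A3 and A5 (0.584, 0.0313). That of Pde4d and Fosl2 passed with scan session as a block (0.672, 0.0363). With the mean of all probe sets the r of these 3 pairs, in the order of the rho above, was 0.169, 0.245 and 0.116. None of the 3 passed in that setting, with quantile normalization or within either scanner. Pde4d was the gene with the most negative values, -0.47 with Atf3, -0.44 with Per1 and -0.24 with Nr4a1, none of which passed. With quantile normalization the first 2 passed, at -0.583 (adjusted permutation p = 0.02) and -0.617 (0.0116).

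The pairs were compared within batches. Scanner 1 read 12 and scanner 2 read 11 inguinal arrays, and the r of Nr4a1 and Nr4a3 was 0.762 and 0.734 in them, of Nr4a1 and Atf3 0.712 and 0.749, and of Nr4a1 and Per1 0.696 and 0.814. For Nr4a2 and Nr4a3 r was 0.691 on scanner 1 and 0.420 on scanner 2. Of the 45 pairs, 0 passed within scanner 1 alone and 2 within scanner 2, where there are fewer arrays, while within the 17 arrays of scan session 1 the count was 8. Without clones A3 and A5 the pair of Nr4a3 and Per1 stood at 0.510 and did not pass.

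**Figure D3:**
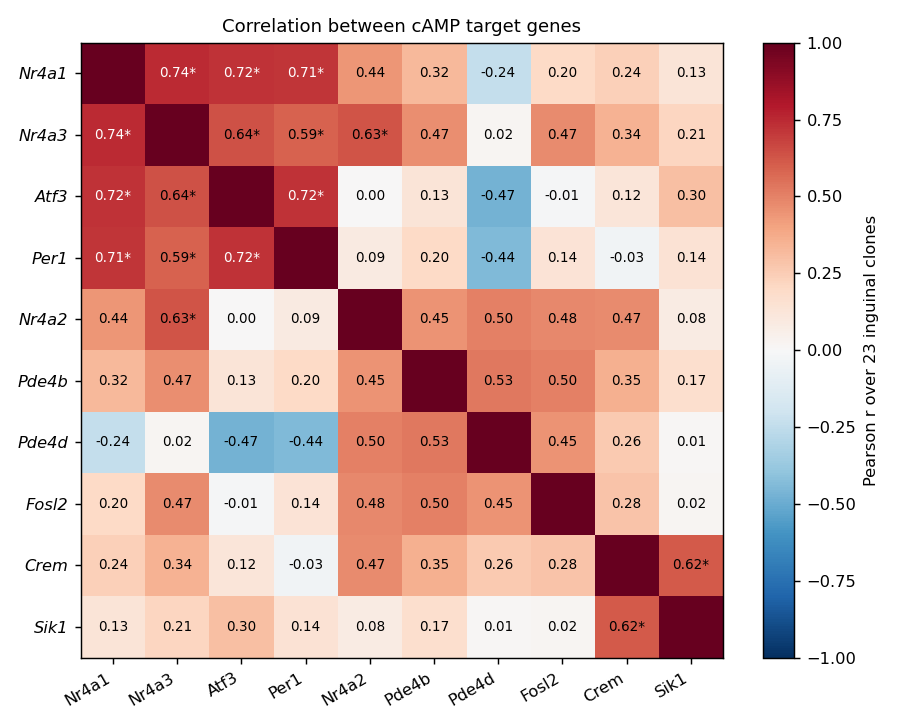
Pearson r over the 23 inguinal clones for each pair of the 10 genes, from blue (-1) to red (1); a star marks pairs that passed after adjustment over the 45 pairs. Nr4a1, Nr4a3, Atf3 and Per1 form a block of 6 starred pairs with r from 0.59 to 0.74, Nr4a2 joins it only through Nr4a3, and Crem pairs with Sik1.

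The members were then set against 4 measures of the clones: log2 Ucp1, the adipocyte marker mean, the Atf4 and unfolded protein response mean and the actin 3′ to 5′ ratio. Each gene was regressed on the measure with limma over the 23 inguinal clones with adjustment over all tested genes, and r and rho of the 40 relations were tested by 100000 permutations. The measures are not independent of each other, with r of 0.706 between Ucp1 and the adipocyte mean and 0.496 between the adipocyte and stress means.

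Ucp1, which encodes the uncoupling protein that makes heat in brown and beige fat and is itself a cAMP target, ranged from 4.658 to 7.546 in inguinal clones, from near background upwards. None of the 10 members passed the limma regression on it (0 of 10, with 1.48% of all tested genes called, 1.37% with a positive and 0.11% with a negative slope), while 2 members, Sik1 and Atf3, had an unadjusted p under 0.05 by limma and by permutation. Sik1 had the largest r, 0.591 (rho = 0.613, permutation p = 0.00276, adjusted over the 40 relations 0.0184), with a slope of 0.62 ± 0.17 (SE) log2 units per log2 unit of Ucp1 and a limma adjusted p of 0.0695. Atf3 had r = 0.527 and a slope of 0.84 ± 0.27 (limma adjusted p = 0.134), which with the adipocyte mean as a covariate was -0.02.

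Atf3 and Sik1, 2 of the 10 members, rose with the adipocyte marker mean, where 10.6% of all tested genes were called, 6.13% with a positive and 4.47% with a negative slope. Atf3 had a slope of 1.02 ± 0.18 (SE, limma adjusted p = 0.000305) with r = 0.754 and rho = 0.735, and r was 0.768 and 0.721 within the 2 scanners, 0.779 within scan session 1 and 0.756 without the 2 clones farthest from the median. Sik1 had a slope of 0.50 ± 0.15 (SE, limma adjusted p = 0.0326) with r = 0.556 and rho = 0.515. Its r was 0.376 on scanner 1 and 0.765 on scanner 2. Without clones I2 and G10, the 2 farthest from the median, r was 0.412 and the limma call was lost (adjusted p = 0.244), so the call depends on those clones. The slope of Sik1 was positive in all 12 alternatives, between 0.317 and 0.705, and passed in 8 of them. I2 has both the lowest adipocyte mean, 8.020, and the lowest Sik1.

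Nr4a1, Nr4a3, Atf3 and Per1, 4 of the 10 members, rose with the mean of the Atf4 and unfolded protein response genes, against 5.85% of all tested genes called in either direction 4.5% with a positive and 1.35% with a negative slope, and they are the 4 genes whose pairs all passed. This response raises chaperones and amino acid synthesis genes when protein folding or amino acid supply is under strain. None of the 10 members was in the list that made the mean. Per1 had a slope of 1.96 ± 0.25 (SE, limma adjusted p = 0.000106) with r = 0.870 and rho = 0.875, the closest relation of any member to any of the 4 measures. Atf3 had a slope of 4.79 ± 0.68 (SE, limma adjusted p = 0.000293) with r = 0.818 and rho = 0.744. Nr4a1 had a slope of 2.34 ± 0.41 (SE, limma adjusted p = 0.00159) with r = 0.768 and rho = 0.700. Nr4a3 had a slope of 2.73 ± 0.49 (SE, limma adjusted p = 0.00195) with r = 0.755 and rho = 0.668. The permutation p of r was 3e-05 for Nr4a3 and 1e-05, the smallest that 100000 permutations can give, for the other three.

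The slopes are steep because the list mean itself spans little, from 10.62 in J6 to 11.37 in X7, the clone that was also highest for Nr4a1, Nr4a2, Nr4a3 and Per1. Within scanners 1 and 2, r was 0.801 and 0.937 for Per1, 0.763 and 0.880 for Atf3, 0.743 and 0.853 for Nr4a1 and 0.822 and 0.712 for Nr4a3. Without J6 and N13, the 2 clones farthest from the median, r was 0.832 for Per1, 0.826 for Atf3, 0.749 for Nr4a1 and 0.775 for Nr4a3. All 4 passed with the adipocyte mean as a covariate too. The other 6 members had limma adjusted p between 0.340 and 0.837, and the slope of Pde4d was negative, -0.49.

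**Figure D4:**
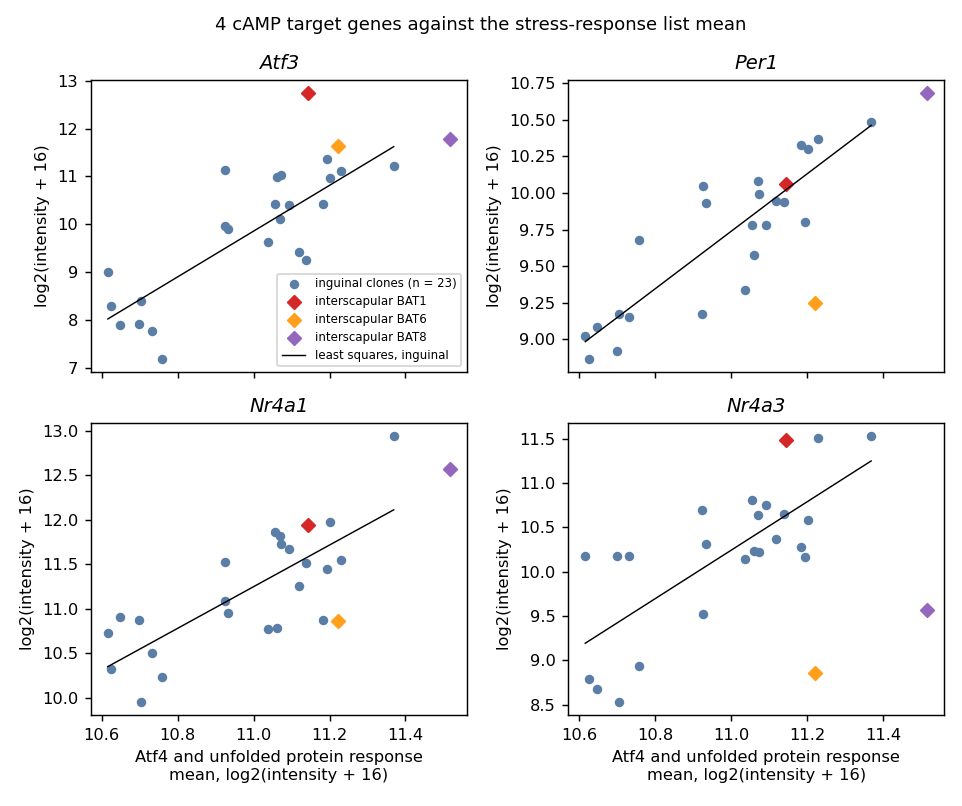
Atf3, Per1, Nr4a1 and Nr4a3 against the mean of 15 Atf4 and unfolded protein response genes, both on the log2(intensity + 16) scale, 1 point per clone; circles are inguinal clones with their least-squares line and diamonds the interscapular clones. All 4 rise from left to right with r from 0.755 to 0.870, and BAT6 lies below the inguinal line for Per1, Nr4a1 and Nr4a3 and above it for Atf3.

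When the stress mean was taken out of both genes of a pair, a setting added after the data were seen, the block of 4 loosened. The r of Nr4a1 and Nr4a3 was then 0.389, of Nr4a1 and Atf3 0.250, of Nr4a1 and Per1 0.150, of Nr4a3 and Atf3 0.059, of Atf3 and Per1 0.026 and of Nr4a3 and Per1 -0.202, and none of these 6 passed. Each of the 4 genes rose closely with the stress mean, so a lower r among them was built into the calculation. The drop is therefore no separate test of a link to the stress genes. Of the 2 other pairs that had passed, Nr4a2 and Nr4a3 stood at 0.754 and Crem and Sik1 at 0.615, and both passed again. Some pairs that had not passed were lower too, such as Per1 and Pde4b, at -0.212 after 0.198. Others were higher and now passed: Pde4b and Pde4d at 0.701 (adjusted permutation p = 0.0054), Nr4a2 and Pde4d at 0.598 (0.0296) and Pde4d and Fosl2 at 0.576 (0.0412).

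The list was also opened gene by gene, again after the data were seen, over 150 relations of 10 members with 15 genes. Of the 15 genes, 8 passed with Nr4a1, 8 with Per1, 7 with Atf3 and 7 with Nr4a3, against 2 with Sik1, 1 with Nr4a2 and 0 with each of the other 4, and every r that passed was positive. The share of all tested genes that would pass with each member was not counted, so these counts cannot be called particular to stress genes. The strongest partners were Dnajb9, a chaperone of the endoplasmic reticulum, for Atf3 (r = 0.832), Ppp1r15a, which restores translation after stress, for Nr4a1 (r = 0.750) and Atf3 (r = 0.753), and Atf4 itself for Per1 (r = 0.719). Dnajb9, like Atf3, also rose with the adipocyte marker mean (slope of 0.418, limma adjusted p = 6.38e-05). Edem1, Hsp90b1 and Sdf2l1 passed with no member by r. Pdia4, an oxidoreductase of the endoplasmic reticulum, passed with Sik1 (r = 0.530), while its r of -0.345 with Atf3 and -0.310 with Nr4a1 did not pass, although by rho it passed with Nr4a1 in the negative direction (rho = -0.532, adjusted permutation p = 0.0454).

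No member passed the limma regression on the actin 3′ to 5′ ratio (0 of 10, with 0.251% of all tested genes called, all with a negative slope), and 4 members, Nr4a2, Nr4a3, Pde4b and Pde4d, had an unadjusted p under 0.05 by limma and by permutation. The slope was negative for 9 of the 10 members, Atf3 being the exception at 0.43 ± 1.29 (SE). Pde4b had r = -0.575 and rho = -0.708 (permutation p = 0.00386 for r, adjusted over the 40 relations 0.0221), and Nr4a2 had r = -0.532 (permutation p = 0.00971, adjusted 0.0412). The part of RNA integrity in the spread of these genes was not tested further.

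**Figure D5:**
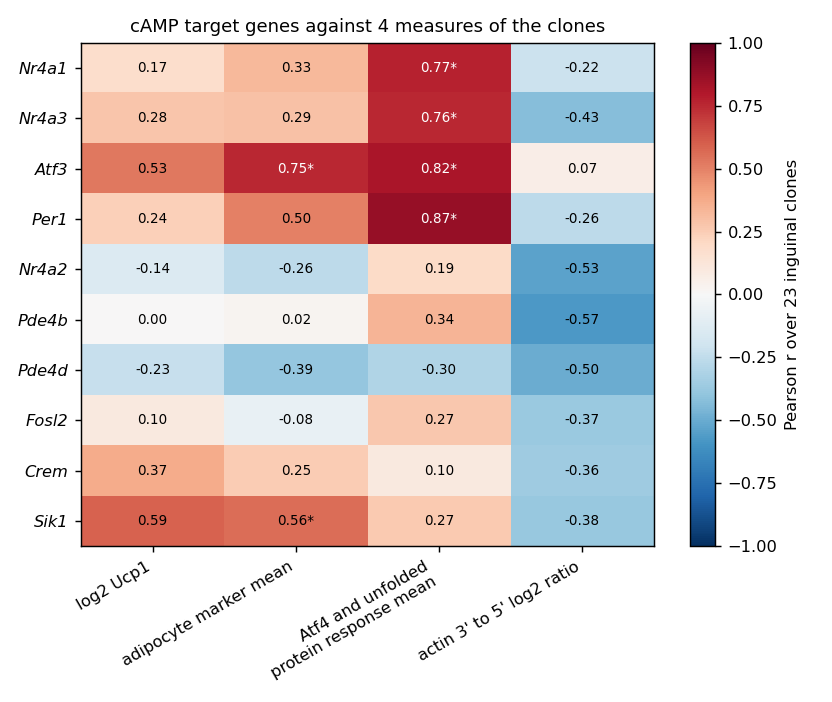
Pearson r over the 23 inguinal clones between each of the 10 genes (rows) and 4 measures of the clones (columns), from blue (-1) to red (1); a star marks relations that passed limma with adjustment over all tested genes. The stars sit with Nr4a1, Nr4a3, Atf3 and Per1 in the stress column, 0.76 to 0.87, and with Atf3 and Sik1 in the adipocyte column, and the actin column is blue for 9 of 10 genes.

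The other early genes of cAMP and growth signals were read from a list of 20, of which 19 were measured, and were related to the members over 190 pairs, a family added after the data were seen. How many of all tested genes would pass with each member was not counted, so the counts below cannot be called particular to early genes. Over all pairs of tested genes, 1.49% had an r of at least 0.591, the smallest that passed among the pairs of members. Smaller r passed among the relations with early genes, such as 0.514 for Per1 and Ier3, so this share is not their background. Nr4a1 passed with 13 of the 19, led by Ier2 (r = 0.892), and Nr4a3 with 13, led by Fos (r = 0.805), the AP-1 subunit that rises within minutes of a stimulus. Atf3 passed with 10, led by the antiproliferative gene Btg2 (r = 0.850), by the MAP kinase phosphatase gene Dusp1 (r = 0.837) and by Cebpb, a transcription factor of early adipogenesis (r = 0.835). Per1 passed with 7, led by Ier2 (r = 0.797). The remaining members passed with fewer genes, some of which also passed with Nr4a1 or Nr4a3: Crem passed with 3, led by Gem, a small GTPase of the RGK family (r = 0.861), and Nr4a2 with 3, led by Ptgs2, the inducible cyclooxygenase (r = 0.728), and Gem (r = 0.727). Pde4b passed with Cebpd (r = 0.673) and Rgs2 (r = 0.595), Fosl2 with Ptgs2 and Nfil3, and Pde4d with Gem. Gem and Nfil3 passed with none of Nr4a1, Nr4a3, Atf3 and Per1, whereas Ptgs2 and Rgs2 also passed with Nr4a3 (r = 0.645 and 0.535) and Cebpd with Nr4a1 and Nr4a3 (r = 0.527 and 0.523). Sik1 passed with 0 of the 19 by this permutation test of r, with 3 at an unadjusted p under 0.05, and its largest r was 0.483 with Pck1. By rho the relation of Sik1 and Pck1 passed (rho = 0.568, adjusted permutation p = 0.0225). Some relations that passed by r did not pass by rho, among them Nr4a3 with Rgs2 (rho = 0.379, adjusted permutation p = 0.179) and Fosl2 with Nfil3 (0.426, 0.122).

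In the depot comparison, 6 of the 63 measured genes of the wider lists were called, or 9.52%, close to the 10.2% of all tested genes. Among 19 other early genes, the clock repressor Per2 was higher in interscapular clones by 1.12 ± 0.34 (SE, limma adjusted p = 0.0304), 7.94 ± 0.22 (n = 3) against 6.82 ± 0.60 (n = 23), and the other 18 did not pass. The median difference of the early genes was 0.38, and the values of single genes ran from -1.20 for Egr3 to 1.59 for Btg2. Of 10 measured phosphodiesterases other than Pde4b and Pde4d, 2 were lower in interscapular clones, Pde2a by -0.67 (limma adjusted p = 0.0322) and Pde7b by -1.44 (0.046), 0 were higher, and the list median was -0.29. Of 15 Atf4 and unfolded protein response genes, 2 were higher, Herpud1 by 0.71 (limma adjusted p = 0.0136) and Edem1 by 0.68 (0.0112), both parts of the machinery that removes misfolded proteins from the endoplasmic reticulum. Of 5 thermogenic cAMP targets 1 was higher, the hormone gene Fgf21, by 4.88 (limma adjusted p = 1.34e-09). Its inguinal mean of 5.48 lay below the array medians of 5.82 to 5.95, so the size is set against background signal and was 3.84 with a pseudocount of 64 and 5.57 with a pseudocount of 1. Of the same list, Ucp1, Ppargc1a, Dio2 and Elovl3 did not pass. CREB with its coactivators (7 measured), the other AP-1 genes (5) and Sik2 and Sik3 had no call, with list medians of -0.08, 0.33 and 0.23. The CREB and coactivator list was also the most uniform among inguinal clones, with a median SD of 0.263 against 0.60 for the 10 members. Of the 6 calls only that of Fgf21 passed in all 23 alternatives, and those of Edem1, Herpud1, Pde2a, Per2 and Pde7b passed in 15, 13, 12, 9 and 6. Without BAT6 none of these 5 passed (limma adjusted p from 0.117 to 0.217). Without BAT1 the calls of Per2 (1.24, 0.0636) and Pde2a (-0.40, 0.317) were lost, and without BAT8 those of Per2 (1.09, 0.114), Pde7b (-0.96, 0.317), Herpud1 (0.58, 0.119) and Edem1 (0.63, 0.0733).

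Over the inguinal clones the stress mean went with other early genes as well: 9 of 19 rose with it, as did 3 of 5 other AP-1 genes and 1 of the 2 other SIK kinases, Sik2, beside the 4.5% of all tested genes called with a positive slope. By limma 0 of 10 phosphodiesterases, 0 of 7 CREB and coactivator genes and 0 of 5 thermogenic targets passed. With the adipocyte mean, for which 6.13% of all tested genes were called with a positive and 4.47% with a negative slope, 3 of 5 thermogenic targets and 3 of 19 early genes (Cebpb, Pck1 and Irs2) rose. Sik2 and the CREB coactivator gene Crtc2 rose with it too (slopes of 0.43 and 0.17, limma adjusted p of 0.000369 and 0.0246). So did 2 of the 15 Atf4 and unfolded protein response genes, Xbp1 and Dnajb9 (slopes of 0.422 and 0.418, limma adjusted p of 7.77e-07 and 6.38e-05). Of 10 phosphodiesterases 2 fell with it and 1 rose, Pde3b, the phosphodiesterase through which insulin restrains lipolysis, with a slope of 0.57 and a limma adjusted p of 1.5e-06. Cebpb, Irs2 and Sik2 were called with both means.

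For the 3 most variable members, the genes most like them among all tested genes were found by Pearson r over the 23 inguinal clones, as a description. Atf3 was closest to Csrnp1 (r = 0.901), a nuclear protein induced by axin, Zfp655 (0.888) and the heat shock cochaperone gene Dnajb1 (0.885). Sik1 was closest to Ing3 (0.789), Uqcrc2 (0.778), a subunit of respiratory complex III, and Gm34303 (0.777). Nr4a2 was closest to Procr (0.80), the receptor of protein C, Frmd6 (0.784) and Slc41a2 (0.784).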

How the data were processed

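The authors deposited 1 linear intensity per probe set for each of 26 arrays; the sources used here do not say how probes were summarised or arrays scaled. These intensities were taken to log2(intensity + 16) with no further scaling, from the deposited table. The platform annotation, which can be old, gives 1 gene symbol to 34945 of 45101 probe sets, several to 932 and none to 9160, and 64 are controls; 34754 were matched to RefSeq (GRCm38.p6) and 0 symbols were updated. Probe sets with several symbols or none were left out, and the brightest of each of 18193 genes was used.

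Depots come from the labels and each clone is 1 replicate, so p-values measure the spread between clones, not between repeat cultures; the number of arrays, above all of interscapular clones, limits the precision. Scanner, chip lot, fluidics station and scan session (scans at most 3 days apart) come from the experiment files. Tests used limma 3.58.1 in R 4.3.3, and permutations used numpy 2.4.6 in Python 3.11.15. On simulated arrays of 12741 genes, the depot fit recovered 75% of planted log2 differences of 1 and 99% of 2, with 13 false calls. Recovery at the spread of the 10 members was not tested separately. The median SD of the members among inguinal clones was 0.60, against 0.324 over all tested genes. Named genes are the 10 members, genes of the wider lists that passed, and the 3 genes most like each of the 3 members of largest SD; early and stress genes named for their correlation with members, and Crem's, Nr4a2's and Fosl2's other settings, were chosen after their values were seen. The members and lists were chosen with earlier results of these data known. Alternatives covered scaling, pseudocount, probe sets, filter, batches, single clones, covariates and array weights. The forskolin treatment rests on the protocols, and the short description of only 1 clone, N13, repeats it.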

Additional observations from a re-analysis of the deposited data

How the results depend on the processing

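No paired analysis was possible because the clones of the 2 depots share no replicate number that the labels tie together. The alternatives were chosen with earlier results known, and those with the Atf4 and unfolded protein response mean as a covariate were chosen after seeing the data. Of 110 recomputed counts of calls 79 stayed within 1.5 times the first value, and of 982 single values 797 kept their direction and side of the threshold, 110 lost their call, 4 gained one, 70 uncalled values moved and 1 reversed, the r of Nr4a3 and Per1, which was -0.202 with the stress mean as a covariate. The count of members that differed between depots, 1 with all arrays, was 0 with scan session or fluidics station as a block, within scan session 1, within scanner 1, within scanner 2, within chip lot 2, with the adipocyte or the stress mean as a covariate and with array weights, and ranged from 0 to 1 when 1 interscapular clone was left out. Where a count of 1 came with chip lot as a block or without BAT1 the gene was Crem, and within scan session 2, whose arrays are those of chip lot 4, it was Nr4a2. The count of wider-list genes called, 6 with all arrays, was 2 with fluidics station as a block and within scan session 1. It was 1 within chip lot 2 and within scanner 2, and 1 to 4 without 1 interscapular clone. This count takes in any gene of these lists, and within scan session 1 only Fgf21 of the first 6 passed. Over all tested genes the depot fit made 1299 calls, against 622 with fluidics station as a block, 705 with the adipocyte mean, 550 within scan session 1, 208 within session 2, 101 and 644 within scanners 1 and 2, 99 within chip lot 2 and 440 to 883 without 1 interscapular clone. The 2 members related to the adipocyte mean were 1 with a pseudocount of 64, with the mean of all probe sets, without the 2 farthest clones and within either scanner. The 4 related to the stress mean were 0 within scanner 1 and 2 within scanner 2, where fewer arrays were fitted. The count of correlated pairs, 8 with all inguinal clones, was 0 within scanner 1, 2 within scanner 2, 13 with the adipocyte mean and 5 with the stress mean as a covariate. The median depot difference over all genes stayed between -0.030 and -0.003 under every scaling, pseudocount, probe set and filter setting. The cause of the other changes was not tested. Signals near background limit the dim genes, among them Sik1, Ucp1, Fgf21 and Pck1.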
